A study of Homo sapiens with 12 samples.

Results

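Lipid droplet coat and lipolysis genes were described in macrophages polarized in the presence or absence of a phthalate metabolite. Members were the 9 genes with the symbols PLIN2, PLIN3, CIDEB, HILPDA, G0S2, PNPLA2, ABHD5, LIPE and MGLL among the 58907 genes of the deposited count table. Of these, 7 passed the filter on low counts, which left 15252 genes for testing, and G0S2 and CIDEB did not. Cells were PPRE-eGEP-THP-1, made from THP-1, an established line of human leukaemic monocytes, and carrying a construct that the labels name but do not describe. All groups received phorbol 12-myristate 13-acetate (PMA, which turns THP-1 monocytes into adherent macrophages) at 25 ng/mL for 48 h and a 24 h rest. The M1 MCHP group was then polarized for 24 h with lipopolysaccharide (LPS, 100 ng/mL) and interferon gamma (IFN-γ, 20 ng/mL) together with 100 µM MCHP, and the M1 DMSO group with LPS, IFN-γ and solvent. The M2 MCHP group received interleukin 4 and interleukin 13 (20 ng/mL each) with 100 µM MCHP, and the M2 DMSO group both interleukins with solvent. MCHP is monocyclohexyl phthalate, the monoester of the plasticizer dicyclohexyl phthalate. Each group had 3 libraries, 12 in all, and 1 cell line was used. Nothing in the labels says that replicates came from separate cultures, so p-values measure the spread between these samples, which may be technical.

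Cells store triglyceride and cholesteryl ester in lipid droplets, whose surface is coated by perilipins. PLIN2 and PLIN3 are the perilipins of most cells outside fat, and CIDEB belongs to a family of droplet fusion proteins known best from liver. Stored triglyceride is broken down in steps: PNPLA2 (adipose triglyceride lipase, ATGL) removes the first fatty acid, LIPE (hormone-sensitive lipase) acts on the diglyceride and MGLL on the monoglyceride. ABHD5 activates PNPLA2, while HILPDA and G0S2 bind and inhibit it. Macrophages that take up much lipid become foam cells, and PLIN2 is commonly used to mark their droplets. Several of these genes, PLIN2 and HILPDA among them, are known targets of peroxisome proliferator-activated receptors (PPARs), and HILPDA is also known as a target of hypoxia-inducible factors.

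Upstream sequence is shown for a member that responded strongly to MCHP, PLIN2, and for a coat gene and a lipase gene, PLIN3 and PNPLA2, that were not called. RefSeq (GRCh38.p14) gave windows of 250 bases before a transcript start for 7 of the 9 members, 11 windows in all, with none matched for HILPDA and MGLL. Each stretch below runs 5′ to 3′ on the gene's strand and stops before the first base that an annotated exon of the gene covers. All later bases of the window are left out. Capitals mark ACGTG, the core of the hypoxia response element, or AGGTCA, the half-site of nuclear receptors, on either strand. The PLIN2 stretch is chr9:19127577-19127742 (minus strand), inside the span of the table's gene model, the PLIN3 stretch chr19:4867769-4867917 (minus strand) and the PNPLA2 stretch chr11:818664-818901 (plus strand).
PLIN2: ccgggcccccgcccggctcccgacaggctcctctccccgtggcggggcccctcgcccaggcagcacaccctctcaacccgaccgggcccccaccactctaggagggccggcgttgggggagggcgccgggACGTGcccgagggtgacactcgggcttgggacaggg
PLIN3: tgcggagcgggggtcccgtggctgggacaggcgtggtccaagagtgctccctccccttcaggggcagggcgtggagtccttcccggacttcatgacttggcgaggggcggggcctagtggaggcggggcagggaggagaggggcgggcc
PNPLA2: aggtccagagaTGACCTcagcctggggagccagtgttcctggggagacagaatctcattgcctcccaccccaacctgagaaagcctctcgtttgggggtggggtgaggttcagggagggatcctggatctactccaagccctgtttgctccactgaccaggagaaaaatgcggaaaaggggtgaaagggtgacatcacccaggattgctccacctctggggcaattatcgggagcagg
Among the windows of the members, ACGTG was found in that of PLIN2 alone, 120, 69 and 68 bases before the start, where the last 2 matches overlap each other and lie on opposite strands of CACGTG, the E-box. In 35116 RefSeq windows of the same length, 18.5% held ACGTG and 6.34% held CACGTG. The half-site AGGTCA was found in the window of PNPLA2 alone among members, 239 bases before the start, and 12.1% of all windows held it. The TATA box letters TATAAA stood 29 bases before the PLIN2 start and in 10.7% of all windows. No member window held AGGTCANAGGTCA, the paired half-sites of a PPAR response element, which 6 windows of all (0.0171%) held. The printed PLIN2 stretch ends 85 bases before the start, so that the matches at 69, 68 and 29 bases lie in bases that are not printed. These matches describe letters in short windows, and no binding was measured.

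Libraries held 14352202 to 16871233 counts, of which at least 99.8% fell in the tested genes. CPM here are counts relative to a library size adjusted by the TMM method of edgeR, and RPKM are these values per kilobase of the gene model, used where genes are compared with each other. Replicate 1 of M2 DMSO stood apart: the SD of its log2 deviations from its group was 0.445, against 0.315 to 0.352 in the other 11 libraries. The MCHP changes of the 7 tested members in M2 are therefore also given without it, as are most of their other comparisons with M2 DMSO. Calls for list and marker genes, ratios and nearest profiles are from all 12 libraries and were not repeated without it. In DMSO, all 10 tested markers of the M1 list were higher in M1 than in M2, and of 7 tested markers of the M2 list 5 were lower in M1 and 1, CLEC10A, was higher (log2 3.96 ± 0.14). Under MCHP, CLEC10A (4.64) and CCL13 (0.67) were higher in M1, against their place in the M2 list, and 5 were lower. Summed CPM of the M1 list, most of it from IL1B, was 12020 to 12541 in M1 MCHP and 11909 to 12668 in M1 DMSO. It was 4815 to 5785 in M2 MCHP and 5605 to 5827 in M2 DMSO. IL1B averaged 10428 CPM in M1 DMSO and 5638 CPM in M2 DMSO, whereas GBP1 averaged 506 CPM in M1 DMSO and 0.0596 CPM in M2 DMSO. Summed CPM of the M2 list, most of it from TGM2, ran the other way, at 2385 to 2402 in M1 MCHP and 2184 to 2235 in M1 DMSO, against 11336 to 11534 in M2 MCHP and 8890 to 11283 in M2 DMSO. In the macrophage list 9 of 10 genes averaged at least 1 CPM, with sums between 3328 and 3845 CPM in all libraries, but its member CD68 had only 36 counts over the 12 libraries. These sums hide differences: in DMSO, 6 of its 9 tested genes were higher in M1 (CD14 most, log2 3.11) and 2 lower (ITGAM -1.16 and ITGAX -0.20). Of all tested genes, 21.6% were called higher in M1 and 20.9% lower. Among M2 markers MRC1 had 2 counts, CCL17 12 and MAOA 0. In bulk samples such as these, fewer cells expressing a gene and less RNA per cell cannot be told apart.

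Levels of the members spanned a wide range. PLIN3 had the highest mean over the 12 libraries, 83.8 RPKM, at the 97.5th percentile of tested genes. PNPLA2 followed with 34.9 RPKM, PLIN2 with 14.1 and MGLL with 9.77. ABHD5 averaged 3.26 RPKM (49.0th percentile), HILPDA 1.77 and LIPE 0.883 (24.3rd percentile). Among the members, the main coat gene by RNA level was thus PLIN3 and the main lipase gene PNPLA2, while the cofactor and the inhibitors were at or under the middle of tested genes. Of lipases outside the set, LIPA had more counts over the 12 libraries than PNPLA2 (252526 against 25047).

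**Figure D1:**
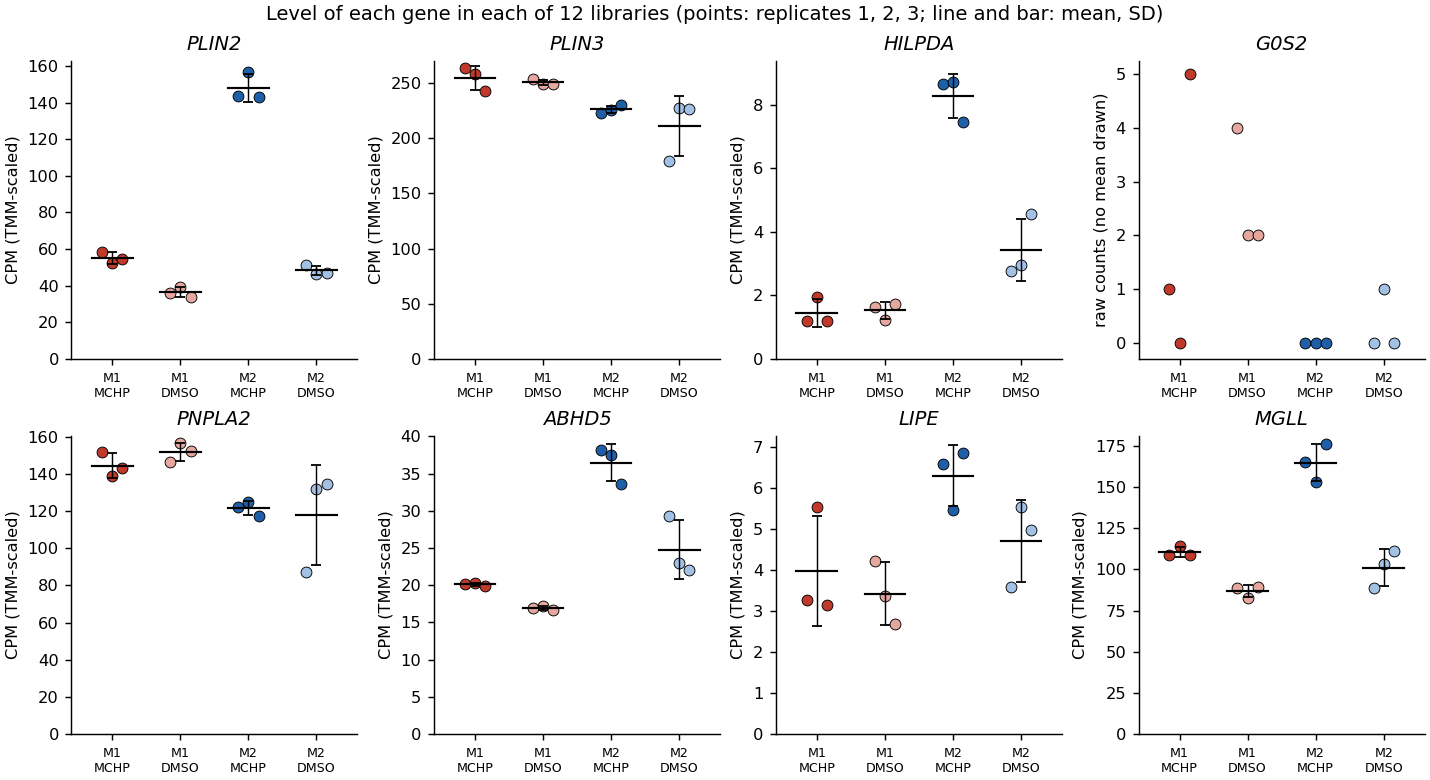
Level of 8 members in each library (points) of the 4 groups, in TMM-scaled CPM, with the group mean and SD as bars; G0S2 is shown as raw counts with no mean. PLIN2 in the M2 MCHP libraries sits between 143 and 156 CPM, above all other libraries, whereas PLIN3 and PNPLA2 overlap between MCHP and DMSO.

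The first question was how MCHP changed these genes in M2 cells. Of the 7 tested members, 4 rose in M2 (PLIN2, HILPDA, ABHD5 and MGLL) and 0 fell, while 2.92% of all tested genes were called higher (edgeR's quasi-likelihood test, Benjamini-Hochberg adjusted p under 0.05 over all genes). Their groups did not overlap, as was so upward for 11.2% of all tested genes. The median log2 fold change of the 7 was 0.56, and it was -0.00034 over all tested genes. PLIN3, PNPLA2 and LIPE were not called. Those that rose were a coat gene, an inhibitor of PNPLA2, its activator and the last lipase of the pathway.

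PLIN2 (ENSG00000147872, chromosome 9, 19108375 to 19149290, minus strand) had 144, 156 and 143 CPM in M2 MCHP, against 51.3, 46.4 and 47.1 CPM in M2 DMSO. Every MCHP library was far above every DMSO library. The change was 3.06-fold (log2 1.61 ± 0.07 SE, 95% interval 1.46 to 1.77, adjusted p = 3.86e-10). Without the outlying DMSO library it was 1.66 (adjusted p = 1.35e-16).

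PLIN3 (ENSG00000105355, chromosome 19, 4838341 to 4867768, minus strand), the other perilipin of the set, had 223, 226 and 230 CPM in M2 MCHP, against 180, 227 and 226 CPM in M2 DMSO. The groups overlapped, and the low value of 180 CPM belonged to the outlying replicate 1. The log2 change was 0.10 ± 0.07 (adjusted p = 0.507), with an interval that allows folds of 0.963 to 1.19. Without replicate 1 of M2 DMSO it was -0.0015 (adjusted p = 0.99).

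The coat transcripts were also compared within each library. Per length, PLIN2 amounted to 0.361 ± 0.0202 of PLIN3 in M2 MCHP, against 0.129 ± 0.0253 in M2 DMSO (RPKM ratio, SD, n = 3 each). Libraries ran from 0.344 to 0.383 in M2 MCHP and from 0.113 to 0.158 in M2 DMSO, with no overlap. PLIN3 thus remained the more abundant transcript of the pair in each library.

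Among the inhibitors, HILPDA (ENSG00000135245, chromosome 7, 128455849 to 128458418, plus strand) had 8.65, 8.71 and 7.46 CPM in M2 MCHP, against 2.77, 2.94 and 4.56 CPM in M2 DMSO. These rest on 109 to 150 counts per MCHP library and 44 to 80 per DMSO library. The groups did not overlap, although replicate 3 of M2 DMSO was higher than the other DMSO libraries. The change was 2.41-fold (log2 1.27 ± 0.21, 95% interval 0.83 to 1.70, adjusted p = 0.00118), and without replicate 1 of M2 DMSO the log2 value was 1.14 (adjusted p = 0.000501).

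G0S2 (ENSG00000123689, chromosome 1, 209675420 to 209676388, plus strand), the other inhibitor of PNPLA2, had 0 counts in each M2 MCHP library and 1 count in M2 DMSO, in replicate 2. A count of 0 over the M2 MCHP group allows up to 3 counts in 46339735, or 0.0647 CPM, a limit that covers counting error only. No difference between MCHP and DMSO was detectable for it at this depth. HILPDA was thus the inhibitor with measurable RNA in M2 cells.

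ABHD5 (ENSG00000011198, chromosome 3, 43690108 to 43734371, plus strand), the activator of PNPLA2, had 38.2, 37.5 and 33.6 CPM in M2 MCHP, against 29.3, 23.0 and 22.1 CPM in M2 DMSO. All MCHP libraries were above all DMSO libraries, and replicate 1 was the highest of DMSO. The change was 1.47-fold (log2 0.56 ± 0.10, 95% interval 0.35 to 0.77, adjusted p = 0.00233). Fitted on the M2 libraries alone, the same change (0.55) had an adjusted p of 0.0524, and without replicate 1 of M2 DMSO it was 0.70 (adjusted p = 1.21e-06).

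PNPLA2 (ENSG00000177666, chromosome 11, 818902 to 825573, plus strand), the lipase that ABHD5 activates, had 122, 125 and 118 CPM in M2 MCHP, against 87.1, 132 and 135 CPM in M2 DMSO. Here replicate 1 of M2 DMSO was the lowest of all libraries and the other DMSO libraries lay above all MCHP libraries. The log2 change was 0.04 ± 0.11 (adjusted p = 0.885; fold interval 0.877 to 1.21), and -0.13 (adjusted p = 0.104) without that replicate. The direction for PNPLA2 thus turned with 1 library, and neither value passed the threshold.

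LIPE (ENSG00000079435, chromosome 19, 42401507 to 42427426, minus strand), the lipase for diglycerides, had 6.59, 5.46 and 6.85 CPM in M2 MCHP, against 3.59, 5.53 and 4.96 CPM in M2 DMSO. The groups overlapped. Its log2 change was 0.42 ± 0.22 (95% interval -0.05 to 0.88, adjusted p = 0.326), and 0.26 (adjusted p = 0.513) without replicate 1 of M2 DMSO.

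MGLL (ENSG00000074416, chromosome 3, 127689062 to 128052190, minus strand), which completes triglyceride breakdown and also degrades the endocannabinoid 2-arachidonoylglycerol, had 166, 153 and 176 CPM in M2 MCHP, against 88.9, 103 and 111 CPM in M2 DMSO. Each MCHP library exceeded each DMSO library. The change was 1.63-fold (log2 0.71 ± 0.08, 95% interval 0.54 to 0.87, adjusted p = 2.76e-05), and 0.62 on the log2 scale without replicate 1 of M2 DMSO (adjusted p = 1.8e-08). Of the 3 lipases in the set, MGLL was the one called in M2.

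Levels of cofactor and inhibitor were also set against their lipase. HILPDA amounted to 0.126 ± 0.00731 of PNPLA2 per length in M2 MCHP and 0.0544 ± 0.0115 in M2 DMSO (RPKM ratio, SD, n = 3 each), with no overlap. For ABHD5 the ratio was 0.152 ± 0.00682 in M2 MCHP and 0.114 ± 0.0492 in M2 DMSO. The ABHD5 ratio overlapped between groups, since replicate 1 of M2 DMSO had 0.171, above the MCHP range of 0.145 to 0.159. The ratio of MGLL to PNPLA2 was 0.441 ± 0.0438 in M2 MCHP and 0.284 ± 0.0414 in M2 DMSO, with no overlap (0.398 to 0.485 against 0.253 to 0.331). These ratios are descriptions and were not tested.

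**Figure D2:**
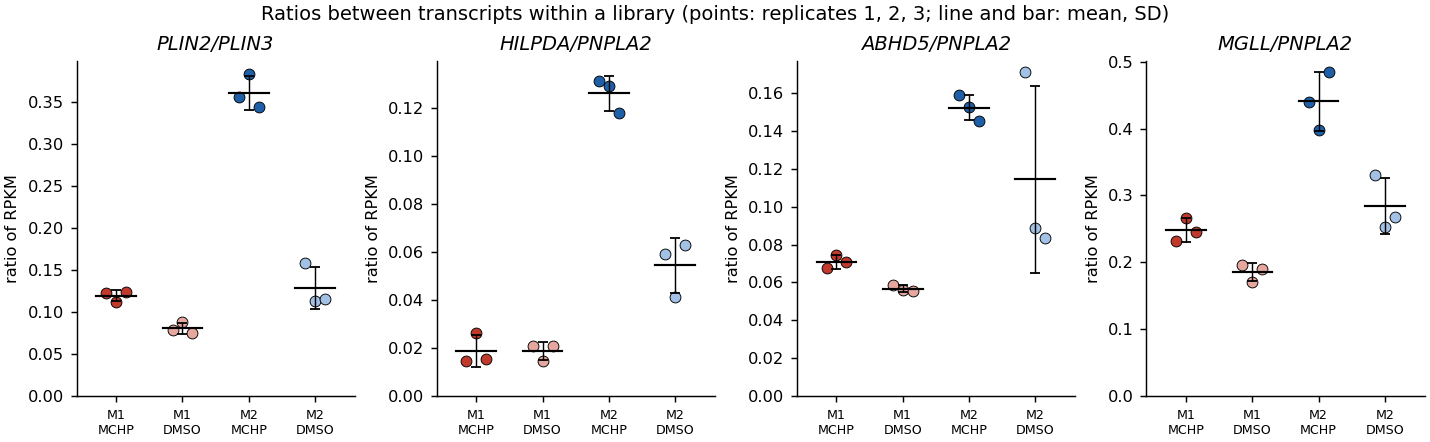
RPKM ratio of members within each library (points; PLIN2 over PLIN3, and HILPDA, ABHD5 and MGLL over PNPLA2), by group. The PLIN2 to PLIN3 ratio lies between 0.344 and 0.383 in M2 MCHP and does not exceed 0.158 in M2 DMSO, and the ABHD5 to PNPLA2 ratio of replicate 1 of M2 DMSO, 0.171, lies above the M2 MCHP libraries.

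Other measures moved along with MCHP in M2. Mitochondrially encoded genes took 3.64%, 3.71% and 4.28% of counts in M2 MCHP, against 3.23%, 3.12% and 3.10% in M2 DMSO. Of 7 tested M2 markers 1 rose with MCHP in M2 (CCL22, log2 0.71) and 4 fell (CCL13 -1.32, CLEC10A -0.99, CD209 -0.59 and CISH -0.34), with a median of -0.59. The M2 marker sum was higher with MCHP all the same (ranges given above), with 10046 CPM of TGM2 in M2 MCHP and 9391 CPM in M2 DMSO, a gene that was not called. Most of this gap lay in the outlying replicate 1 of M2 DMSO, with a sum of 8890 CPM. Replicates 2 and 3 had 11283 and 11011 CPM, close to the lowest M2 MCHP sum of 11336 CPM. Of 9 tested macrophage markers 0 rose and 3 fell (TYROBP -0.49, FCER1G -0.47 and CSF1R -0.32). Over all tested genes, 2.92% were called higher with MCHP in M2 and 2.18% lower. The lymphocyte list summed to 27.3 to 34.7 CPM in M2 MCHP and 37.5 to 47.8 CPM in M2 DMSO. Most of this sum came from TRAC, with 20.3 CPM in M2 MCHP and 32.6 CPM in M2 DMSO. TRAC fell (log2 -0.68, adjusted p = 0.00249 by edgeR) and was the 1 gene called of 6 tested in that list. CD3D, CD3E and CD8A had 1, 3 and 2 counts over the 12 libraries. The part of these in the results for PLIN2, HILPDA, ABHD5 and MGLL was not tested. Adipocytes share many droplet genes, and the adipocyte list summed to 167 to 178 CPM in M2 MCHP and 133 to 137 CPM in M2 DMSO, with 4 of its 10 genes at 1 CPM or more. Most of this sum came from ADIPOR2, with 147 CPM in M2 MCHP and 116 CPM in M2 DMSO. Of the 4 tested genes of the adipocyte list, PLIN4 (log2 0.73) and ADIPOR2 (0.34) rose. AQP7 had 2.83 CPM in M2 MCHP and 1.40 CPM in M2 DMSO without passing the test (adjusted p = 0.0701 by edgeR). CFD, with 1671 counts over the 12 libraries, had 7.32 CPM in M2 MCHP and 8.40 CPM in M2 DMSO. Its value thus went the other way, and it was not called (log2 -0.20, adjusted p = 0.502 by edgeR). ADIPOQ had 4 counts, LEP 1, PLIN1 12 and CIDEA 0. Fibroblast list sums were 43.6 to 49.4 CPM in M2 MCHP and 40.0 to 50.1 CPM in M2 DMSO.

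The same question was asked in M1 cells. In M1, 1 of the 7 tested members, PLIN2, rose, and 0 fell, with 0.0721% of all tested genes called higher. The median log2 fold change of the 7 was 0.21, against 0 over all tested genes. Groups did not overlap upward for PLIN2, ABHD5 and MGLL, as for 8.35% of all tested genes. Marker sums moved with MCHP in M1 as well: the lymphocyte list summed to 19.3 to 19.8 CPM in M1 MCHP and 23.9 to 25.6 CPM in M1 DMSO, and the fibroblast list to 130 to 145 CPM in M1 MCHP and 123 to 128 CPM in M1 DMSO. Most of the lymphocyte sum came from TRAC (11.5 CPM in M1 MCHP and 15.9 CPM in M1 DMSO). Most of the fibroblast sum came from COL1A1 (130 CPM in M1 MCHP and 116 CPM in M1 DMSO), while COL3A1 and DCN had 0 counts. The M2 list was also higher with MCHP in M1 by its sum (2385 to 2402 CPM in M1 MCHP and 2184 to 2235 CPM in M1 DMSO), with a median log2 change of -0.30. No marker of the 6 lists was called in M1 (edgeR called 13 genes of all, 817 had an unadjusted p under 0.05 and DESeq2 called 50), and the part of these sums in the PLIN2 result was not tested.

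PLIN2 had 58.6, 52.1 and 54.4 CPM in M1 MCHP, against 35.8, 39.4 and 33.9 CPM in M1 DMSO. The groups were clearly apart. The change was 1.51-fold (log2 0.60 ± 0.08, 95% interval 0.44 to 0.76, adjusted p = 0.00304). The call was lost without replicate 1 of M1 MCHP (log2 0.55, adjusted p = 0.0511) or replicate 3 of M1 DMSO (0.55, adjusted p = 0.0538). The ratio of PLIN2 to PLIN3 was 0.120 ± 0.00692 in M1 MCHP, against 0.0803 ± 0.00644 in M1 DMSO (RPKM, SD, n = 3 each).

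PLIN3 had 263, 258 and 243 CPM in M1 MCHP, against 253, 249 and 249 CPM in M1 DMSO. These overlapped, with a log2 change of 0.02 ± 0.07 (adjusted p = 0.998; fold interval 0.914 to 1.13).

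HILPDA had 1.19, 1.96 and 1.18 CPM in M1 MCHP, against 1.64, 1.21 and 1.72 CPM in M1 DMSO, on 18 to 27 counts per library in both groups. Its groups overlapped (log2 -0.09 ± 0.29, 95% interval -0.71 to 0.52, adjusted p = 0.998), and changes inside that interval were not detectable at this depth. G0S2 had 1, 0 and 5 counts in M1 MCHP, against 4, 2 and 2 counts in M1 DMSO. The ratio of its summed counts per library size, 6 to 8, was 0.743 with an exact 95% counting interval of 0.212 to 2.44. A difference in either inhibitor was not detectable in M1.

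ABHD5 had 20.1, 20.3 and 19.9 CPM in M1 MCHP, against 16.9, 17.3 and 16.7 CPM in M1 DMSO. Although each MCHP library exceeded each DMSO library, the change (log2 0.25 ± 0.11, 95% interval 0.02 to 0.47) was not called over all genes (adjusted p = 0.879 by edgeR).

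PNPLA2 had 152, 139 and 143 CPM in M1 MCHP, against 147, 157 and 153 CPM in M1 DMSO. The groups overlapped (log2 -0.07 ± 0.11, adjusted p = 0.998; fold interval 0.811 to 1.12). LIPE had 3.26, 5.52 and 3.15 CPM in M1 MCHP, against 4.22, 3.37 and 2.67 CPM in M1 DMSO. It also overlapped (log2 0.21 ± 0.25, adjusted p = 0.998).

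MGLL had 109, 114 and 109 CPM in M1 MCHP, against 88.8, 82.4 and 89.2 CPM in M1 DMSO. The libraries of the groups did not overlap, yet the log2 change of 0.35 ± 0.08 (95% interval 0.18 to 0.51, 1.27-fold) did not pass the threshold over all genes (adjusted p = 0.138 by edgeR). The MGLL call depended on the fit: it was past the threshold with DESeq2 (adjusted p = 0.0244), with no filter on low counts (0.00497), with M1 libraries alone (1.95e-05) and without replicate 1 of M2 DMSO (0.000525). Over all alternatives its adjusted p ran from 1.95e-05 to 0.663.

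**Figure D3:**
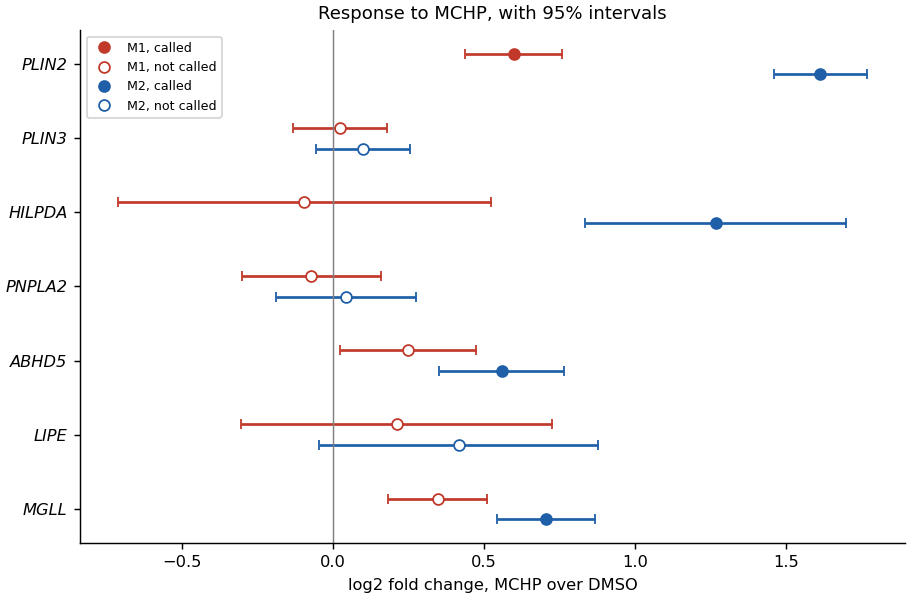
Log2 fold change of the 7 tested members for MCHP over DMSO, with 95% intervals, in M1 (red) and in M2 (blue); filled points passed the adjusted p threshold of 0.05. PLIN2 is called in both polarizations, at 0.60 in M1 and 1.61 in M2, and HILPDA, ABHD5 and MGLL in M2 alone.

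Whether the response to MCHP differed between M1 and M2 was tested as an interaction. Of the 7 members, 1 differed: the PLIN2 response was smaller in M1 than in M2 by 1.02 on the log2 scale (difference -1.02 ± 0.11, 95% interval -1.24 to -0.79, adjusted p = 0.000146), where 0.105% of all tested genes were called lower. For HILPDA the difference was -1.36 ± 0.36 (95% interval -2.12 to -0.60) and missed the threshold (adjusted p = 0.188 by edgeR). With no filter on low counts its adjusted p was 0.0326. For MGLL the difference was -0.36 ± 0.11 (adjusted p = 0.296) and for ABHD5 -0.31 ± 0.15 (adjusted p = 0.561). Without replicate 1 of M2 DMSO the differences were -1.06 for PLIN2 (adjusted p = 5e-08), -1.24 for HILPDA (0.0646), -0.28 for MGLL (0.0622) and -0.45 for ABHD5 (0.0369), so that ABHD5 passed the threshold. PLIN3 (-0.08), PNPLA2 (-0.11) and LIPE (-0.20) had adjusted p of 0.889, 0.889 and 0.91. With all 12 libraries and the filter, the responses of HILPDA, ABHD5 and MGLL, called in M2 and not in M1, are thus not shown to differ between the polarizations.

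Members also differed between the polarizations without MCHP. In DMSO, 2 of the 7 tested members (PLIN3 and PNPLA2) were higher in M1 than in M2, with 21.6% of all tested genes, and 4 (PLIN2, HILPDA, ABHD5 and MGLL) were lower, with 20.9%. Groups did not overlap for 2 members upward (25.5% of all tested genes) and for 3 downward (24.1%), since those of MGLL overlapped. HILPDA averaged 1.53 ± 0.272 CPM in M1 DMSO and 3.42 ± 0.987 CPM in M2 DMSO (SD, n = 3 each; log2 -1.17 ± 0.25, adjusted p = 0.00102). ABHD5 averaged 16.9 ± 0.299 CPM in M1 DMSO and 24.8 ± 3.93 CPM in M2 DMSO (-0.55 ± 0.10, adjusted p = 0.000302). HILPDA, an inhibitor of PNPLA2, and ABHD5, its activator, were thus both lower in M1. G0S2, the other inhibitor, had 8 counts in M1 DMSO and 1 in M2 DMSO and was not tested. PLIN2 averaged 36.4 ± 2.81 CPM in M1 DMSO and 48.3 ± 2.64 CPM in M2 DMSO (-0.41 ± 0.08, adjusted p = 0.000271), and MGLL 86.8 ± 3.79 CPM in M1 DMSO and 101 ± 11.3 CPM in M2 DMSO (-0.22 ± 0.08, adjusted p = 0.0288). Without replicate 1 of M2 DMSO these were -1.30 for HILPDA (adjusted p = 0.00014), -0.41 for ABHD5 (0.000337), -0.36 for PLIN2 (0.000119) and -0.30 for MGLL (9.55e-05). The MGLL call was lost without replicate 1 or 2 of M1 DMSO (adjusted p = 0.0547 and 0.124), without replicate 2 or 3 of M2 DMSO (0.0721 and 0.162) and with the DMSO libraries alone (0.0734).

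PLIN3 averaged 251 ± 2.33 CPM in M1 DMSO and 211 ± 27.1 CPM in M2 DMSO (log2 0.25 ± 0.07, adjusted p = 0.0107). PNPLA2 averaged 152 ± 5.07 CPM in M1 DMSO and 118 ± 26.7 CPM in M2 DMSO (0.36 ± 0.11, adjusted p = 0.012). Replicate 1 was the lowest M2 library for both genes, and without it the changes were 0.14 for PLIN3 (adjusted p = 0.00945) and 0.19 for PNPLA2 (0.00331). With library size alone as the scale, neither was called (0.12, adjusted p = 0.155 for PLIN3, and 0.24, adjusted p = 0.0715 for PNPLA2), a scale that shifts the median of all genes by -0.13. Neither was called in a fit of the DMSO libraries alone (adjusted p = 0.0551 for PLIN3 and 0.0638 for PNPLA2). The 4 lower members were still called lower with library size alone. LIPE averaged 3.42 ± 0.774 CPM in M1 DMSO and 4.69 ± 0.997 CPM in M2 DMSO and was not called (-0.47 ± 0.24, adjusted p = 0.126). LIPE passed the threshold without replicate 1 of M2 DMSO (-0.62, adjusted p = 0.0263) and with library size alone (-0.59, adjusted p = 0.0461).

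G0S2 was the member seen mainly in M1. Its counts summed to 14 over the 6 M1 libraries, against 1 over the 6 M2 libraries, a ratio of 15.3 per library size with an exact 95% interval of 2.33 to 646 that covers counting error only. With 15 counts in all it did not enter the test across genes.

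Under MCHP, 5 of the 7 tested members were lower in M1 than in M2 (PLIN2, HILPDA, ABHD5, LIPE and MGLL), with 22.7% of all tested genes, and 0 were higher, with 21.9%. Groups did not overlap for 4 members downward (28.8% of all tested genes) and for 2 upward (28.3%). PLIN2 averaged 55.0 ± 3.30 CPM in M1 MCHP and 148 ± 7.63 CPM in M2 MCHP (SD, n = 3 each; log2 -1.42 ± 0.07, adjusted p = 9.44e-12). HILPDA averaged 1.44 ± 0.448 CPM in M1 MCHP and 8.27 ± 0.702 CPM in M2 MCHP (-2.53 ± 0.24, adjusted p = 5.68e-08), the widest gap between polarizations among the 7. ABHD5 averaged 20.1 ± 0.204 CPM in M1 MCHP and 36.4 ± 2.47 CPM in M2 MCHP (-0.86 ± 0.10, adjusted p = 1.18e-06). MGLL averaged 110 ± 3.10 CPM in M1 MCHP and 165 ± 11.4 CPM in M2 MCHP (-0.58 ± 0.08, adjusted p = 4.71e-06). The groups of these 4 did not overlap.

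LIPE averaged 3.97 ± 1.34 CPM in M1 MCHP and 6.30 ± 0.739 CPM in M2 MCHP (log2 -0.67 ± 0.23, adjusted p = 0.0226), with 1 M1 library inside the M2 range. Its call was lost without replicate 1 or 3 of M1 MCHP (adjusted p = 0.104 and 0.109) or of M2 MCHP (0.0659 and 0.0746). PLIN3 (0.17 ± 0.07, adjusted p = 0.0675) and PNPLA2 (0.25 ± 0.11, adjusted p = 0.0754) were not called, although without replicate 1 of M2 DMSO, which enters the shared estimate of spread, their adjusted p were 0.000772 and 4.64e-05. Both were also called in a fit of the MCHP libraries alone (adjusted p = 0.00347 for PLIN3 and 0.000283 for PNPLA2), and PNPLA2 with no filter on low counts (0.00626). Comparisons within a polarization and within an agent share libraries and are not independent of each other.

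**Figure D4:**
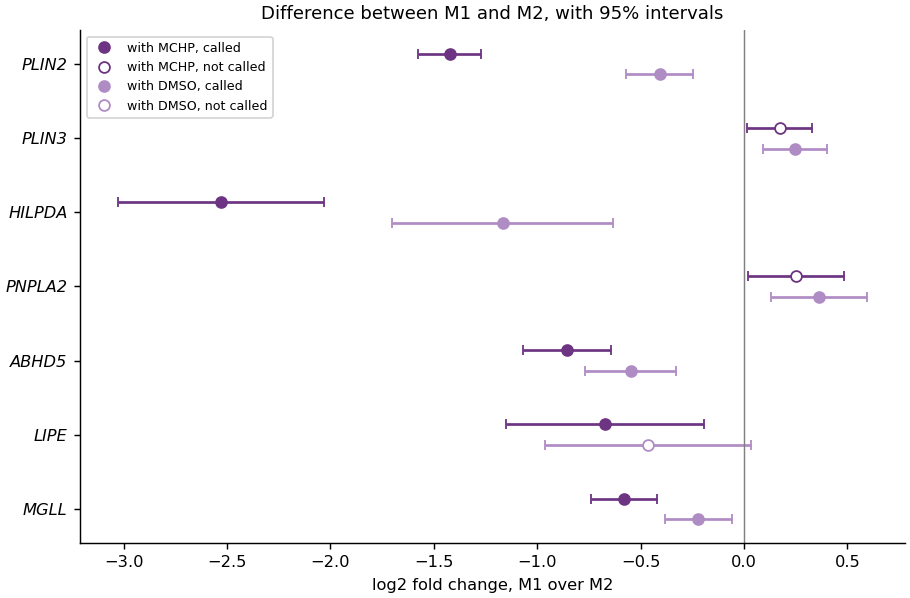
Log2 fold change of the 7 tested members for M1 over M2, with 95% intervals, in cells with MCHP and with DMSO; filled points passed the adjusted p threshold of 0.05. HILPDA lies furthest to the left, at -2.53 with MCHP and -1.17 with DMSO, and PLIN3 and PNPLA2 lie to the right of 0, where their calls with DMSO are lost when library size alone sets the scale.

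By level, PLIN2 was highest in M2 MCHP, then in M1 MCHP (52.1 to 58.6 CPM), M2 DMSO (46.4 to 51.3 CPM) and M1 DMSO (33.9 to 39.4 CPM), and no groups overlapped. ABHD5 and HILPDA were highest in M2 MCHP and next in M2 DMSO, and HILPDA overlapped between M1 MCHP and M1 DMSO. MGLL followed the order M2 MCHP, M1 MCHP, M2 DMSO and M1 DMSO, where M1 MCHP (109 to 114 CPM) and M2 DMSO (88.9 to 111 CPM) overlapped. M1 MCHP and M2 DMSO differ in polarization and agent at once and were not tested against each other.

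CIDEB (ENSG00000136305, chromosome 14, 24305096 to 24311430, minus strand) had 0 counts in each of the 12 libraries. All 3198 exonic bases of its gene model are shared with genes on the opposite strand in the annotation, 1954 with NOP9 and 1276 with LTB4R2. The table lists 7006 counts for NOP9 and 462 for LTB4R2. Whether the counting used strand is not given in the sources used here, so the 0 of CIDEB is not read as absence. Shared exonic bases were fewer for PLIN3 (17.8%), HILPDA (13.2%), PNPLA2 (10.4%), LIPE (9.6%) and ABHD5 (2.25%), and 0 for PLIN2, G0S2 and MGLL. LIPE-AS1, the antisense partner of LIPE, had 51 counts, against 861 for LIPE.

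Other droplet and lipolysis genes were read from lists. Of 12 tested droplet coat and associated genes beyond the members, 2 rose and 0 fell with MCHP in M2 (median log2 fold change 0.11), where 2.92% of all tested genes were called higher and 2.18% lower. PLIN4, a perilipin best known from fat and muscle, had 14.1 CPM in M2 MCHP and 8.52 CPM in M2 DMSO (0.73 ± 0.14, adjusted p = 0.00381). SPART, which encodes spartin, a droplet-associated protein, had 73.4 CPM in M2 MCHP and 60.3 CPM in M2 DMSO (0.28 ± 0.06, adjusted p = 0.0127). PLIN1 and PLIN5, the perilipins of adipocytes and of oxidative tissue, had 12 and 38 counts over the 12 libraries and were not tested, and CIDEC and CIDEA had 22 and 0. Of the perilipin family, PLIN2 and PLIN4 thus rose in M2 and PLIN3 was not called. Between polarizations in DMSO, where 21.6% of all tested genes were called higher in M1 and 20.9% lower, 3 genes of this list were higher in M1 (SPART 0.58, HSD17B11 0.39 and AUP1 0.19) and 3 lower (METTL7A -1.77, PLIN4 -0.95 and FITM2 -0.85).

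With MCHP in M2, 2.92% of all tested genes were called higher and 2.18% lower. Of 13 tested lipases beyond the members, 1 rose and 0 fell in M2 (median 0.04). This was NCEH1, a hydrolase of cholesteryl esters in macrophages, with 130 CPM in M2 MCHP and 103 CPM in M2 DMSO (0.33 ± 0.06, adjusted p = 0.00424). LIPA, the lysosomal acid lipase, was not called for MCHP. It averaged 723 CPM in M1 DMSO and 1976 CPM in M2 DMSO (-1.45 ± 0.07, adjusted p = 7.12e-12). Between polarizations in DMSO, against the same 21.6% and 20.9% of all tested genes, 2 lipases of the list were higher in M1 (CES1 0.37 and ABHD16A 0.83) and 6 were lower (LIPA, ABHD6 -1.57, PNPLA7 -1.11, DDHD2 -0.65, NCEH1 -0.35 and PNPLA6 -0.31).

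Of 18 tested genes of the cAMP and insulin control of lipolysis, 1 rose and 2 fell in M2 (median 0.04). Over all tested genes, 2.92% were called higher with MCHP in M2 and 2.18% lower. PDE3B, the phosphodiesterase through which insulin lowers cAMP in adipocytes, had 278 CPM in M2 MCHP and 205 CPM in M2 DMSO (0.44 ± 0.06, adjusted p = 0.000505). PDE3A (1.65 CPM in M2 MCHP and 3.11 CPM in M2 DMSO, -0.90 ± 0.23, adjusted p = 0.029) and the adenylyl cyclase ADCY7 (33.8 and 43.0 CPM in the same order of groups, -0.35 ± 0.08, adjusted p = 0.019) fell. Between M1 and M2 in DMSO, 8 genes of this list were higher and 3 lower (of all tested genes, 21.6% and 20.9%). HCAR2 and HCAR3, receptors that restrain lipolysis, were higher in M1 (log2 5.46 and 5.27), but these genes are near-identical copies and the split of reads between them is uncertain. PDE3B was lower in M1 (-1.26 ± 0.07).

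Among 9 transcription regulators known for these genes, NR1H3 (liver X receptor alpha) and EPAS1 (hypoxia-inducible factor 2 alpha) rose in M2 and 0 fell (median 0.0044). Over all tested genes, 2.92% were called higher with MCHP in M2 and 2.18% lower. NR1H3 had 53.3 CPM in M2 MCHP and 29.5 CPM in M2 DMSO (0.85 ± 0.07, adjusted p = 7.64e-07), and EPAS1 had 82.2 CPM in M2 MCHP and 61.1 CPM in M2 DMSO (0.43 ± 0.09, adjusted p = 0.00596). PPARG RNA was not called for MCHP in M2 (-0.19, adjusted p = 0.337). Between polarizations in DMSO it was lower in M1 (-1.85 ± 0.11, adjusted p = 1.35e-10), the 1 regulator of the 9 called lower. The 3 called higher in M1 were HIF1A, PPARD and SREBF1, where 21.6% of all tested genes were called higher and 20.9% lower. HIF1A had 170 CPM in M1 DMSO and 78.3 CPM in M2 DMSO (1.12 ± 0.08, adjusted p = 1.25e-09). PPARD, another PPAR, had 534 CPM in M1 DMSO and 388 CPM in M2 DMSO (0.46 ± 0.08, adjusted p = 0.000165). For SREBF1 the log2 value was 0.48 ± 0.10 (adjusted p = 0.000594).

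Against 2.92% of all tested genes called higher with MCHP in M2 and 2.18% lower, targets of hypoxia-inducible factors were read. Of 10 tested targets other than HILPDA, 0 rose and 1 fell with MCHP in M2 (median -0.08). The one called was VEGFA, with 482 CPM in M2 MCHP and 570 CPM in M2 DMSO (-0.24 ± 0.06, adjusted p = 0.0196). Under MCHP, M1 against M2, called genes numbered 2 higher and 3 lower in the coat list, 2 and 8 in the lipase list, 9 and 5 in the signalling list, 3 and 4 among regulators and 2 and 3 among hypoxia targets, where 21.9% of all tested genes were called higher and 22.7% lower. For MCHP in M1, NR1H3 was the only gene of these 5 lists that was called (40.9 CPM in M1 MCHP and 28.8 CPM in M1 DMSO, 0.50 ± 0.07, adjusted p = 0.00775). In the test of the difference between M1 and M2 responses none of these lists had a called gene, where edgeR called 25 genes of all at an adjusted p under 0.05, 1349 had an unadjusted p under 0.05 and DESeq2 called 96.

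**Figure D5:**
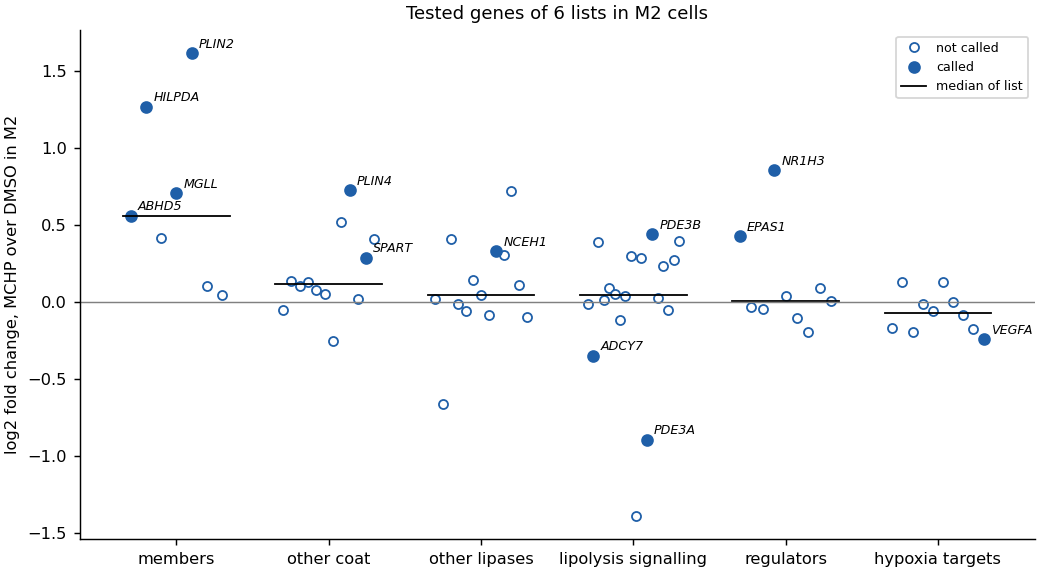
Log2 fold change for MCHP over DMSO in M2 of each tested gene in 6 lists (points), with called genes filled and named. Of the 7 tested members 4 are called higher, of 12 other coat genes 2, of 13 other lipases 1, of 18 signalling genes 1 higher and 2 lower, of 9 regulators 2, and of 10 hypoxia targets 1 lower.

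Genes with profiles most like each member were found by the root mean square difference of the 4 group means of log2 CPM, each centred on its own mean, among 9611 or 9612 protein-coding genes with at least 5 CPM. For PLIN2 the nearest were VWA5A (0.17), PPP2R3A (0.22) and SHANK3 (0.23), where the median over candidates was 0.76. For HILPDA they were FABP5 (0.14), SLC37A2 (0.22) and FAM13A (0.25; median 0.99). ABHD5 lay nearest to SYK (0.023), ANGPTL4 (0.034) and FAM234B (0.048; median 0.42), and MGLL to DISP1 (0.038), SEPT9 (0.051) and BMP2 (0.054; median 0.37). FABP5 encodes a fatty acid binding protein and ANGPTL4 an inhibitor of lipoprotein lipase. LIPE lay nearest to BLVRA, CCDC88C and SRD5A3 (0.025 to 0.031). PLIN3 and PNPLA2, whose groups differed least, had neighbours within 0.012 (medians 0.18 and 0.21). These likenesses rest on 4 group means and carry no test.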

How the data were processed

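RNA was sequenced from 12 libraries of PPRE-eGEP-THP-1 cells in 4 groups of 3. Values in the deposited table are whole-number counts of reads per gene, not normalized, with gene model lengths alongside, per the file headers, and 0 other per-sample columns were left unused. The submitters' processing notes list HISAT2 2.0.5, featureCounts 1.5.0-p3, StringTie 1.3.3b, DESeq2 1.20.0 and fastp with the build hg38, but neither what each did nor a strand setting.

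In R 4.3.3, edgeR 4.0.16 was run on these counts: filterByExpr over the 4 groups (15252 genes), TMM scaling, 1 mean per group in 1 fit of all libraries (8 residual degrees of freedom), and two-sided quasi-likelihood F-tests in 5 contrasts, called at a Benjamini-Hochberg adjusted p under 0.05. The script was tested on simulated counts. Alternatives used DESeq2 1.42.0, limma 3.58.1 (voom), other scalings, no filter, a replicate block, the compared libraries only and each library left out. The members and lists were chosen with earlier results of these data known. All members are named; list genes are named where called (up to 6 a list), with up to 3 nearest profiles per member, and counts and markers of some list genes are given besides.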

Additional observations from a re-analysis of the deposited data

Results flagged for a closer look

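PLIN2 was flagged because its response to MCHP differed between the polarizations by a test of the difference itself: the log2 fold change in M1 minus that in M2 was -1.02 ± 0.11 (edgeR quasi-likelihood F-test, adjusted p = 0.000146), the responses being 0.60 in M1 and 1.61 in M2, with MCHP libraries above DMSO libraries in each polarization. The difference stayed past the threshold in each of 18 alternatives, between -1.07 and -0.96, with adjusted p from 2.12e-14 to 0.00157. With each library left out in turn, the PLIN2 difference ran from -1.07 to -0.96. Groups of 3 libraries were too small for a test of single outlying values within a group.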

How the results depend on the processing

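Of 658 values of members under alternatives, 621 kept their direction and their side of the threshold, 16 lost a call, 13 gained one and 8 changed sign, each of the 8 with 1 library left out and in a member that was not called. With 1 library left out, log2 changes ran from -0.36 to 0.029 for HILPDA (including 0.0053) and -0.088 to 0.39 for LIPE in M1, from -0.0015 to 0.16 for PLIN3 and -0.13 to 0.15 for PNPLA2 in M2, and from -0.13 to 0.026 for PLIN3 and -0.22 to 0.061 for PNPLA2 in the difference. Members called numbered 1 for MCHP in M1 but 2 with no filter on low counts, with DESeq2 and with M1 libraries only, and 0 to 2 with a library left out. In the difference they numbered 1, but 2 with no filter, and 1 to 2 with a library left out. For M1 against M2 in DMSO they numbered 6, but 3 in the compared libraries only. Over all genes, 13 were called in M1, against 76 with no filter, 50 with DESeq2, 295 with M1 libraries only and 1 to 159 with a library left out. In M2, 779 were called, against 183 with M2 libraries only and 383 to 1747 with a library left out (383 and 391 without replicates 1 and 3 of M2 MCHP, 1747 without replicate 1 of M2 DMSO). In the difference, 25 were called, against 170 with no filter, 96 with DESeq2 and 5 to 385 with a library left out. The causes were not tested. Library size alone gave 2395 higher and 4532 lower genes for M1 against M2 in DMSO (main split 3296 and 3193), 2678 and 4338 under MCHP (3342 and 3462), and 306 and 465 for MCHP in M2 (446 and 333). With the replicate number as a block, 5 genes were called in M1 and 692 in M2, and 1, 4, 1, 6 and 5 members in the 5 contrasts, as without it. Deviations of same-numbered libraries had correlations of -0.048 to 0.037. The own number was the best match in 4 of 24 comparisons, all 4 among the 6 between M1 MCHP and M1 DMSO. With 3 libraries per group, these values cannot show whether the numbers pair samples, and the labels do not say. At 18 to 27 counts per M1 library, depth limits HILPDA, and G0S2 and CIDEB could not be tested.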
